A study of Saccharomyces cerevisiae with 8 samples.

Results

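The SNZ and SNO genes of budding yeast, SNZ1, SNZ2, SNZ3, SNO1, SNO2 and SNO3, are described here across all arrays of the series. They were taken by name, as the array probes whose open reading frame is 1 of these 6 genes. Each gene had 1 probe, so 6 of the 6256 probes and 6 of the 6225 genes on the array are covered, and all 6 are among the 6045 genes tested. The family was selected on array values of this series, the low signal of SNZ2 in control cells with H2O2 against control cells without it. The levels in that comparison are therefore given as a description and not as independent evidence.

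Transcripts of Saccharomyces cerevisiae strain CENPK.2-1C were measured on 1-colour Agilent arrays, 2 to a group. Its 4 groups are TFIIB mutant cells with 4 mM H2O2, TFIIB mutant cells without H2O2, control cells with 4 mM H2O2 and control cells without H2O2. All cultures shared the strain background, YPD (a rich glucose medium), exponential phase and an OD600 of 1.0 at collection. The mutant carries a changed TFIIB, a general factor that places RNA polymerase II at promoters; the series calls it M1, and the allele and how it is carried are not given in the sources used here. The 2 samples of a group are called biological replicates in the series' design text.

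Snz and Sno proteins form the enzyme that makes pyridoxal phosphate, the active form of vitamin B6. The Sno subunit is a glutaminase that releases ammonia, and the Snz subunit is the synthase that builds it into the vitamin with a sugar phosphate and a triose phosphate. In yeast the genes lie in 3 divergent pairs. SNZ1 and SNO1 are known for their expression when growth stops and nutrients run short, while the SNZ2/SNO2 and SNZ3/SNO3 pairs lie near chromosome ends beside genes of the THI5 family, which make the pyrimidine part of thiamine, and are known to respond to lack of thiamine.

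Gene positions were read from a RefSeq gene table of assembly R64, in which all 3 pairs have the same layout. SNO1 (YMR095C, chromosome XIII, 457285 to 457959, minus strand) and SNZ1 (YMR096W, chromosome XIII, 458408 to 459301, plus strand) start 448 bases apart in opposite directions. SNO2 (YNL334C, chromosome XIV, 12208 to 12876, minus strand) and SNZ2 (YNL333W, chromosome XIV, 13267 to 14163, plus strand) are separated by 390 bases. SNO3 (YFL060C, chromosome VI, 10301 to 10969, minus strand) and SNZ3 (YFL059W, chromosome VI, 11363 to 12259, plus strand) are separated by 393 bases. The gene downstream of SNZ2 is THI12, 668 bases away, and the gene downstream of SNZ3 is THI5, 669 bases away. The coding lengths follow the same split, with 897 bases for SNZ2 and SNZ3 and 894 for SNZ1, and with 669 bases for SNO2 and SNO3 and 675 for SNO1.

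Each probe is 60 bases long and lies inside its gene, near the 3′ end of the SNZ genes, if the positions in the authors' deposited table are in coordinates close to those of R64 (the build of the probe positions is not named). SNZ2 and SNZ3 are near-identical copies, and so are SNO2 and SNO3. The authors' deposited table assigns the SNO2 and SNO3 probes to the same transcript cluster, TC19805. Hybridisation of transcript from one copy to the probe of the other cannot be told apart from expression of both, so the values of SNZ2 and SNZ3, and those of SNO2 and SNO3, may not be separate measurements.

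Signal differed between the strains over the whole array, which bears on every comparison of them. The 75th percentile of an array's signal was 9.87 to 14.5 units on the 4 mutant arrays and 9185 to 15424 units on the 4 control arrays, while the E1A spike-in probes, which Agilent arrays carry for RNA added in a fixed amount, gave 3209 to 4693 units on mutant arrays and 2621 to 4085 on control arrays. Of all probes, 21.8% to 41.2% were well above background on mutant arrays, against 94.7% to 97.2% on control arrays. SUA7, the gene of TFIIB, read 6.08 to 9.71 units on mutant arrays, not well above background, and 13788 to 30808 units on control arrays. Fewer cells, less RNA per cell and less labelled RNA on an array cannot be told apart. Values are therefore given both relative to the array's 75th percentile, which sets a gene against the other genes of its array, and relative to 7 E1A spike-in probes. The 2 control arrays without H2O2 were close to each other (SD between arrays 0.073 on the log2 scale, with a variance 1.44 times that between repeated spots), against an SD of 0.30 for control cells with H2O2. All 8 arrays lay on 1 slide read in 1 scan. The H2O2 arrays lie in 1 row of the slide and the others in the next, so slide row and H2O2 cannot be told apart.

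On the control arrays all 6 genes were well above background, and each was dimmer with H2O2. SNZ2 read 1874 and 2686 units in control cells with H2O2, against 16831 and 15715 units in control cells without it. SNZ3 read 2736 and 3838 units with H2O2, against 24832 and 23884 without it. SNZ1 read 3989 and 4995 units with H2O2, against 15426 and 14540 without it. In units all 3 synthase genes thus had both H2O2 arrays below both arrays without H2O2, with no overlap and with a wider gap for SNZ2 and SNZ3 than for SNZ1. The share of all genes that did so in units was not counted, so nothing is read from the separation in units. The 75th percentile of the control arrays had the same order, 9185 and 12898 units with H2O2 and 15424 and 15403 without it.

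The glutaminase genes were also lower with H2O2. SNO1 read 91.8 and 94.2 units in control cells with H2O2, against 399 and 347 units without it. SNO2 read 465 and 552 units with H2O2, against 1889 and 1759 without it. SNO3 read 392 and 421 units with H2O2, against 1664 and 1504 without it. The groups did not overlap in units for any of the 3 genes. Nor did they overlap on either scale for any SNZ or SNO gene. Scaled to the 75th percentile, both H2O2 arrays lay below both others for 41.3% of all genes tested, and scaled to the spike-in probes for 72.5%.

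**Figure D1:**
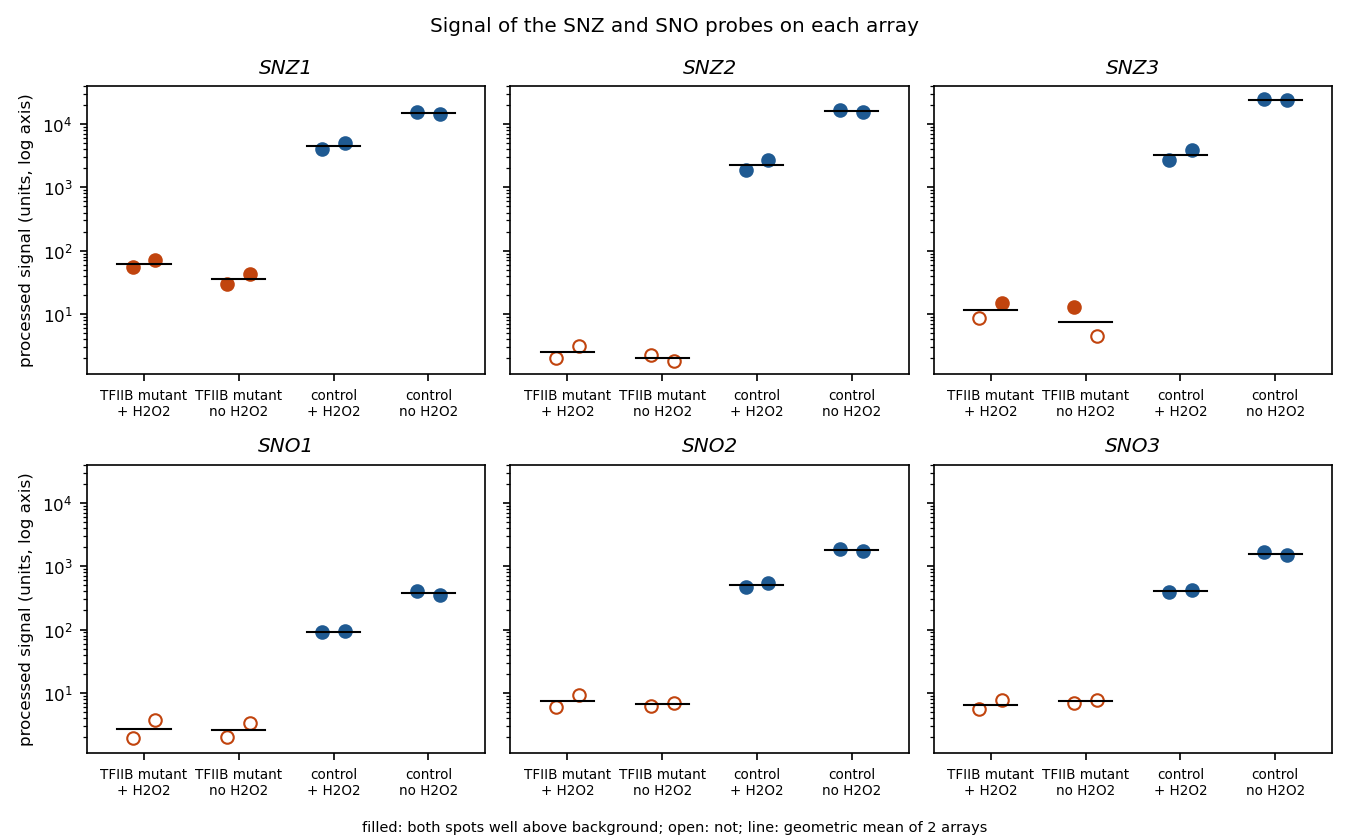
Processed signal (units, log axis) of the 6 SNZ and SNO probes on each of the 8 arrays, by group; filled points were well above background in both spots, open points were not, and lines are geometric means of 2 arrays. In every panel the control arrays with H2O2 sit below the control arrays without it, and on the mutant arrays SNZ1 alone is filled 4 times.

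Relative to the 75th percentile, the log2 change with H2O2 in control cells was −2.36 ± 0.15 for SNZ2 (± is the standard error in the fit, n = 2 arrays a group), a 5.12-fold lower level. It was −2.41 ± 0.41 for SNZ3, a 5.31-fold lower level. It was −1.24 ± 0.24 for SNZ1, a 2.37-fold lower level. SNZ2 and SNZ3 thus had nearly the same change, and SNZ1 a smaller one.

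For the glutaminase genes the log2 change was −1.50 ± 0.33 for SNO1 (2.83-fold lower), −1.34 ± 0.18 for SNO2 (2.54-fold lower) and −1.46 ± 0.19 for SNO3 (2.75-fold lower). These 3 changes lie near that of SNZ1 and above those of SNZ2 and SNZ3. The median over the 6 genes was −1.48, against 0.032 over all genes tested. All 6 were called lower by limma at an adjusted p under 0.05, as were 14% of the genes tested; since the contrast was known when the genes were chosen, nothing is read from that count. Ordered from the lowest change up, SNZ3 and SNZ2 stood at places 117 and 125 of 6045 genes, and SNO1, SNO3, SNO2 and SNZ1 at places 325, 341, 393 and 445.

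Relative to the spike-in probes the same changes were −2.90 for SNZ2, −2.95 for SNZ3, −1.79 for SNZ1, −2.04 for SNO1, −1.89 for SNO2 and −2.0 for SNO3. On that scale the median of all genes tested was itself −0.51; both scales take off 1 constant per array, which shifts every gene alike. On the spike-in scale 15.8% of the genes tested were called lower, and all 6 members were (29 genes higher and 957 lower, against 790 and 847 on the 75th percentile scale). The count of 6 fell to 0 with quantile normalization, where the changes ran from −1.75 for SNZ3 to −0.73 for SNO2 (with SNZ1, at −0.90, below the 3 SNO genes), and to 1 with the 2 similar control arrays without H2O2 averaged and counted as 1 sample, where SNZ2 was the gene called. It was 3 without the second control array with H2O2 and 3 without the second control array without H2O2 (SNZ2, SNO2 and SNO3 each time), and 1, SNZ2, without the first control array without H2O2.

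**Figure D2:**
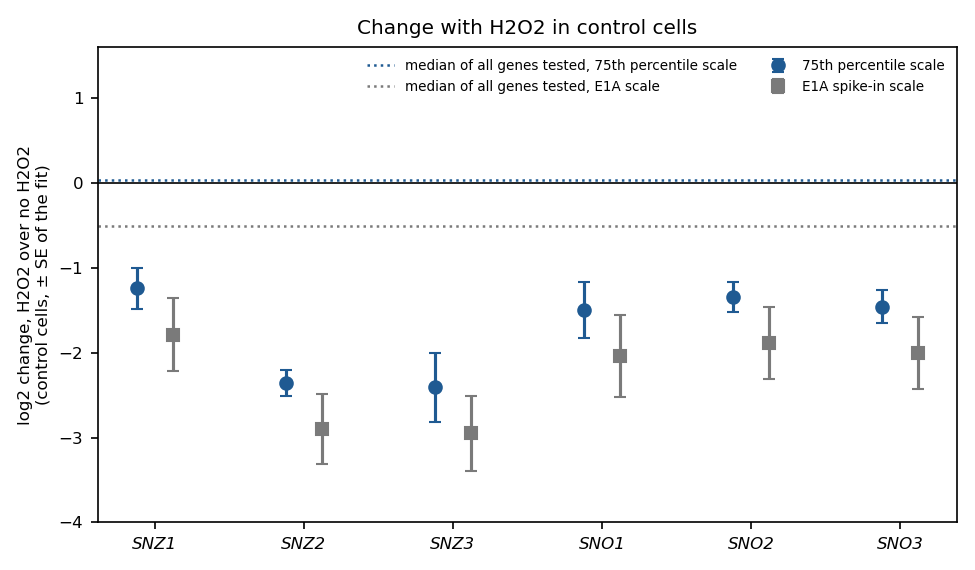
Log2 change with H2O2 in control cells (H2O2 over no H2O2, ± SE of the fit, 2 arrays a group) for the 6 genes on the 75th percentile scale (circles) and the E1A spike-in scale (squares), with the median of all genes tested on each scale as a dotted line. SNZ2 and SNZ3 lie lowest on both scales, at −2.36 and −2.41 on the first, and the other 4 genes lie between −1.50 and −1.24.

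A difference between the changes of 2 genes on the same arrays does not depend on how arrays are scaled by a constant, so the pairs can be compared directly. The change of SNZ2 was below that of SNZ1 by 1.11 on the log2 scale, with −1.22 to −1.01 over the 4 ways to pair an H2O2 array with an array without H2O2. The change of SNZ3 was below that of SNZ1 by 1.16 (−1.26 to −1.07). The fold drop of SNZ2 was thus 2.16 times as large as that of SNZ1. The family was chosen by the low signal of SNZ2 in this comparison, and the array pairs reuse the same arrays. The gap is therefore a description. SNZ3 and SNZ2 differed by −0.052 (−0.089 to −0.015); an equal change of both genes and signal shared between near-identical copies cannot be told apart.

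Among the glutaminase genes no such gap was seen. The change of SNO2 was above that of SNO1 by 0.15 on the log2 scale, with 1 array pair at about 0 and the highest at 0.31. The change of SNO3 differed from that of SNO1 by 0.040 (−0.022 to 0.10), and the ranges over array pairs include or touch 0 in both cases. Within the pairs the picture differed by locus. SNO1 was below SNZ1 by 0.25 (−0.46 to −0.052), whereas SNO2 was above SNZ2 by 1.01 (0.87 to 1.15) and SNO3 above SNZ3 by 0.95 (0.71 to 1.19). The order of SNO1 and SNZ1 depends on the processing. With normexp background correction SNO1 had −1.04 and SNZ1 −1.22, and with quantile normalization −0.73 and −0.90. The genes near chromosome ends therefore split into a synthase gene with a larger fall and a glutaminase gene with a smaller one, and the SNZ1/SNO1 pair did not. With 2 arrays a group these ranges carry no test.

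**Figure D3:**
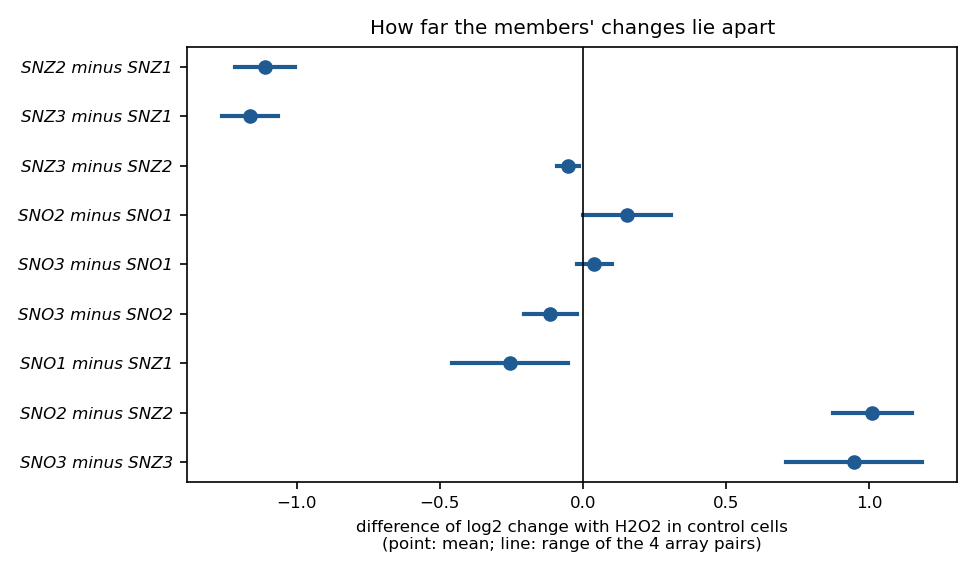
Difference of the log2 change with H2O2 in control cells between 2 genes (first minus second), with the mean as a point and the range over the 4 array pairs as a line. SNZ2 and SNZ3 lie more than 1 log2 unit below SNZ1, while the 3 SNO genes lie within 0.31 of each other for every array pair.

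Genes next to the pairs were set beside them, to see how far along the chromosome the lower signal extends. Near the chromosome ends, 5 of the 8 measured genes of the duplicated segment fell with H2O2 in control cells and 0 rose, with a median log2 change of −0.95 (14% of all genes tested were called lower). DDI2 and DDI3, near-identical genes for an enzyme that degrades cyanamide, fell, with log2 changes of −2.34 ± 0.26 and −2.42 ± 0.28. They lie on the far side of SNO2 and SNO3, and their changes were as large as those of SNZ2 and SNZ3, with the smaller changes of the SNO genes in between. THI5 fell by 0.99 ± 0.17, and its copy THI12 had −0.98 ± 0.33 and was not called (adjusted p = 0.0695, limma). COS1 fell by 0.93 ± 0.22 and AAD14, an aryl-alcohol dehydrogenase gene, by 0.75 ± 0.17. COS4 had −0.39 ± 0.15 and AAD6 −0.60 ± 0.19, neither of them called. The 9th gene of the list, AAD16, was not analysed here.

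Around SNZ1 and SNO1 the neighbours did not share their change. Of 4 genes, 1 rose and 0 fell (13.1% of all genes tested were called higher). UTP15, which acts in ribosome assembly, rose by 1.25 ± 0.26 on the log2 scale, with 18717 and 30124 units in control cells with H2O2 and 13302 and 14935 without it. CTF13, a kinetochore gene that ends next to SNO1, had 0.74 ± 0.25 and was not called (adjusted p = 0.0710, limma). Its probe was well above background on only 2 of the 4 control arrays, at 60.9 and 96.7 units with H2O2 and 66.9 and 63.3 without it. On the other side MTG1 had −0.24 ± 0.21 and ATP25 0.0087 ± 0.17. On the spike-in scale the median of these 4 genes was −0.17, against 0.37 on the 75th percentile scale, so its sign depends on the scaling.

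**Figure D4:**
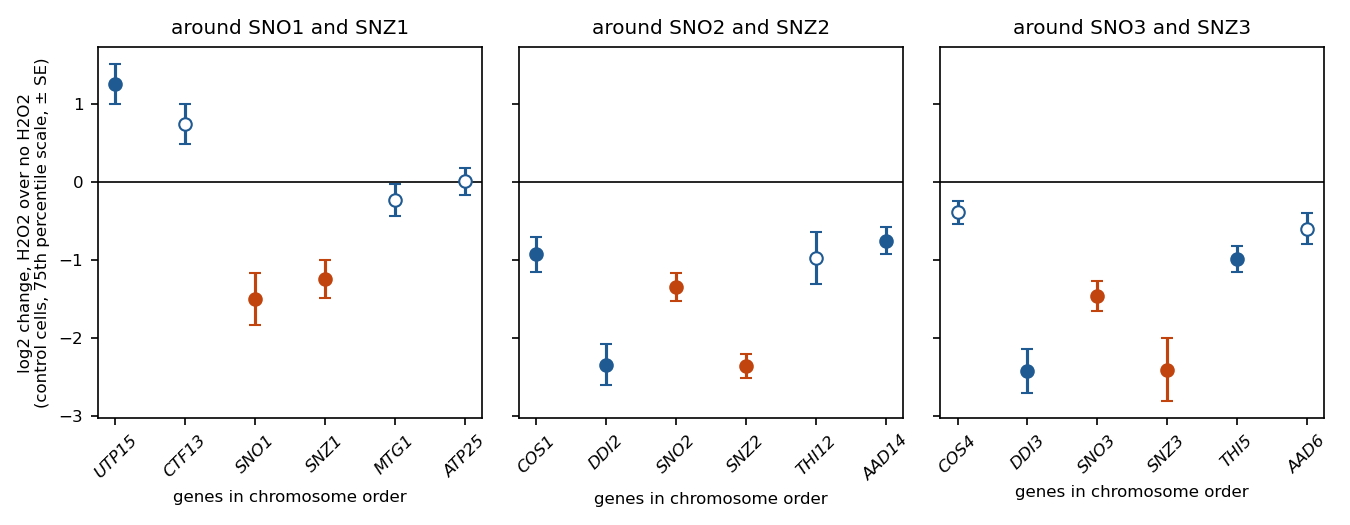
Log2 change with H2O2 in control cells (75th percentile scale, ± SE, H2O2 over no H2O2) for genes in chromosome order around each pair, AAD6 being placed by its systematic name; orange marks SNZ and SNO genes, and filled points passed an adjusted p of 0.05. SNO1 and SNZ1 stand apart from their neighbours, while DDI2 and DDI3 lie as low as SNZ2 and SNZ3.

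For the remaining steps of vitamin B6 metabolism 5 genes were measured. Of these, 1 fell and 0 rose with H2O2 in control cells, with a median of −0.24; 14% of all genes tested were called lower. YPR127W, a putative pyridoxal reductase, fell by 0.63 ± 0.18 on the log2 scale (adjusted p = 0.0409, limma). PDX3, the oxidase that makes pyridoxal phosphate from other forms of the vitamin, had −0.25 ± 0.17. BUD16 and BUD17, putative pyridoxal kinase genes, had 0.43 ± 0.19 and −0.24 ± 0.37, and the pyridoxine transporter TPN1 had −0.23 ± 0.22, all without a call.

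Thiamine genes, the pathway that SNZ2 and SNZ3 are tied to, were mostly lower. Of 18, 10 fell and 1 rose, with a median log2 change of −1.33, against 14% of all genes tested called lower and 13.1% higher. The 4 with the smallest p had log2 changes of −3.33 ± 0.20 (PET18, in the thiamine regulon), −3.02 ± 0.17 (THI2, an activator of thiamine genes), −2.62 ± 0.16 (THI7, the thiamine transporter) and −3.20 ± 0.24 (THI20, a kinase of the pyrimidine branch). PDC2, a regulator of thiamine and pyruvate decarboxylase genes, rose by 0.81 ± 0.17. THI5 and THI12 stand in both this list and that of the segment. As copies they may not be separate measurements, and the counts of both lists treat them as separate genes.

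Of 16 listed genes, GCN4 among them, 4 fell and 0 rose, with a median of −0.26, against 14% of all genes tested called lower. The others are amino acid biosynthesis genes that Gcn4 is known to activate, as it does SNZ1. LYS1, HIS5, ARO3 and HIS4, enzymes of lysine, histidine and aromatic amino acid synthesis, fell, with log2 changes of −0.95 ± 0.17, −0.75 ± 0.15, −0.63 ± 0.16 and −0.74 ± 0.23. GCN4 itself had 0.10 ± 0.19. Of 10 measured genes known for expression at the end of growth, as SNZ1 is, 7 fell and 1 rose, with a median of −1.69, against the same 14% called lower and 13.1% called higher. YGP1, a cell wall protein gene, fell by 3.08 ± 0.23, HSP12, a membrane-associated stress protein gene, by 3.52 ± 0.28 and the catalase gene CTT1 by 3.39 ± 0.59, while SSA3, an HSP70 chaperone gene, rose by 0.87 ± 0.17. SPG1 of that list was not analysed here. These lists were assembled with earlier results of these data known.

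Over the 4 control arrays, likeness was measured as the root mean square difference between the scaled and centred log2 values of 2 genes. Among 5864 other genes SNZ3 was the nearest to SNZ2 and SNZ2 the nearest to SNZ3, at 0.032. The nearest named genes outside the family were ADR1 (0.080), IDP2 (0.13) and GAP1 (0.13) for SNZ2, and ADR1 (0.10), THI7 (0.12) and IDP2 (0.14) for SNZ3. Adr1 is an activator of genes for non-fermentable carbon sources, Idp2 an isocitrate dehydrogenase of the cytosol and Gap1 the general amino acid permease. SNZ1 had other neighbours, QDR2 (0.022), IZH3 (0.030) and YAT2 (0.031), which encode a drug and cation exporter, a membrane protein tied to zinc balance and a carnitine acetyltransferase. SNO2 ranked 15 and SNZ2 2125 in likeness to SNZ1. The 4 arrays fall in 2 groups, so this measure mostly ranks genes by the size of their H2O2 difference.

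On the mutant arrays SNZ1 was the only member well above background on all 4, as were 17.7% of the genes on the array. SNZ1 read 54.5 and 69.8 units in mutant cells with H2O2 and 29.2 and 42.7 units in mutant cells without it. SNZ3 read 8.76 and 14.9 units in mutant cells with H2O2 and 13 and 4.40 units without it, and was well above background on 1 array of each group. SNZ2 read 1.99 and 3.15 units with H2O2 and 2.20 and 1.79 without it, on no array well above background. SNZ1 therefore left a measurable signal on all 4 mutant arrays, SNZ3 on 1 array of each group and SNZ2 on none. On single mutant arrays 21.8% to 41.2% of all probes were well above background.

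The glutaminase genes were not well above background on any mutant array. SNO1 read 1.90 and 3.70 units in mutant cells with H2O2 and 1.97 and 3.38 without it. SNO2 read 5.93 and 9.32 units with H2O2 and 6.24 and 6.84 without it. SNO3 read 5.49 and 7.69 units with H2O2 and 6.98 and 7.62 without it. For each of these 3 genes the mutant groups overlapped, and repeated spots of the 6 genes differed by up to 3.40-fold on mutant arrays, against 1.19-fold on control arrays.

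Without H2O2, the mutant and control comparison of SNZ1 gave opposite signs on the 2 scales. On mutant arrays the 75th percentile lay near background. Relative to the spike-in probes SNZ1 had a log2 change of −9.01 ± 0.43, a 517-fold lower level in mutant cells (adjusted p = 5.34e-16, limma). Relative to the 75th percentile its log2 change was 1.81 ± 0.24 (adjusted p = 0.000285, limma), against a median of 0.63 over all genes tested. With normexp background correction its change was 0.45 and the median of all genes 1.27, so whether SNZ1 lay above or below the median gene depends on the background correction, and with the unpaired test named in the headers of the authors' tables it was not called (adjusted p = 0.0543). With H2O2 the 2 values were −6.50 ± 0.43 (90.3-fold lower, adjusted p = 4.24e-13, limma) and 3.65 ± 0.24 (adjusted p = 5.77e-06, limma). The median of all genes on the spike-in scale was −9.41 with H2O2 and −10.19 without it.

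For the genes not well above background on either mutant array of a group, only bounds can be given. Relative to the spike-in probes with H2O2, SNZ2 was at least 306-fold lower in mutant cells than in control cells, SNO2 at least 69.1-fold, SNO3 at least 55.4-fold and SNO1 at least 12.7-fold. Without H2O2 SNZ2 was at least 2622-fold lower, SNO2 at least 294-fold, SNO3 at least 255-fold and SNO1 at least 60.0-fold. The size of a bound follows from how bright the probe was in control cells. On this scale the median log2 change of all genes tested was −9.41 with H2O2 and −10.19 without it, so a large drop was common to most genes tested. Relative to the 75th percentile a bound above 1 remained for SNZ2 without H2O2 alone, at least 1.45-fold lower in mutant cells. The limma test was not of this bound but of the fitted change, −2.47 ± 0.15 (adjusted p = 4.16e-06). That change rests on mutant signals not well above background. With normexp background correction it was −0.30, so the bound holds for the processed signal only. SNZ3, measured on 1 mutant array of each group, had log2 changes of −8.47 ± 0.44 with H2O2 and −11.94 ± 0.44 without it on the spike-in scale, and of 1.68 ± 0.41 (adjusted p = 0.00617, limma) and −1.12 ± 0.41 (adjusted p = 0.0360, limma) on the 75th percentile scale. Neither of these last 2 calls was firm. Without H2O2 the call of SNZ3 was lost in 12 of 20 alternatives, and its change was −0.41 (adjusted p = 0.0514, limma) without the second mutant array of that group and −1.82 without the first. With H2O2 it was lost with median scaling (adjusted p = 0.0541, limma) and quantile normalization (adjusted p = 0.135, limma).

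On the spike-in scale all 6 genes were called lower in the mutant in both media, as were 99.4% of the genes tested with H2O2 and 99.6% without it. On the 75th percentile scale 5 of 6 were called with H2O2, all higher, against 80% of genes called and 51.7% called higher. Without H2O2 all 6 were called, 4 higher and 2 lower, against 79.3% of genes called, 50.5% higher and 28.8% lower; 1 of the 2 lower calls is that of SNZ3, which was lost when any of 7 of the 8 arrays was left out. Scaled to the median of each array, the genes called split into 2395 higher and 2464 lower with H2O2 (against 3127 and 1709 on the 75th percentile scale) and into 2332 higher and 2450 lower without it (against 3050 and 1741), and the members into 4 higher and 1 lower with H2O2 and 4 higher and 2 lower without it. Most genes were called in these comparisons, and 5 of the 6 members were not well above background on at least 1 mutant array of each group. Nothing is therefore read from these counts. The authors' deposited table, made after quantile normalization, lists SNZ1 as up 11.7-fold with H2O2 (corrected p 0.00742) and up 4.72-fold without it (corrected p 0.0283) in mutant against control cells. The authors' deposited table lists SNZ2 as down 5.26-fold with H2O2 (corrected p 0.0346) and down 21-fold without it (corrected p 0.0273); with H2O2 its log2 change was 0.018 ± 0.15 on the 75th percentile scale. SNO1 did not pass in the authors' deposited table, at 1.34-fold up with H2O2 (corrected p 0.753) and 1.66-fold up without it (corrected p 0.618). The authors' deposited table lists SNO2 and SNO3 as up 4.18-fold and 3.89-fold with H2O2 (corrected p 0.0085 and 0.0295) and up 2.54-fold and 3.33-fold without it (corrected p 0.0655 and 0.0479). SNZ3 is up 2.24-fold with H2O2 (corrected p 0.0496) and down 2.13-fold without it (corrected p 0.458) in the authors' deposited table.

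**Figure D5:**
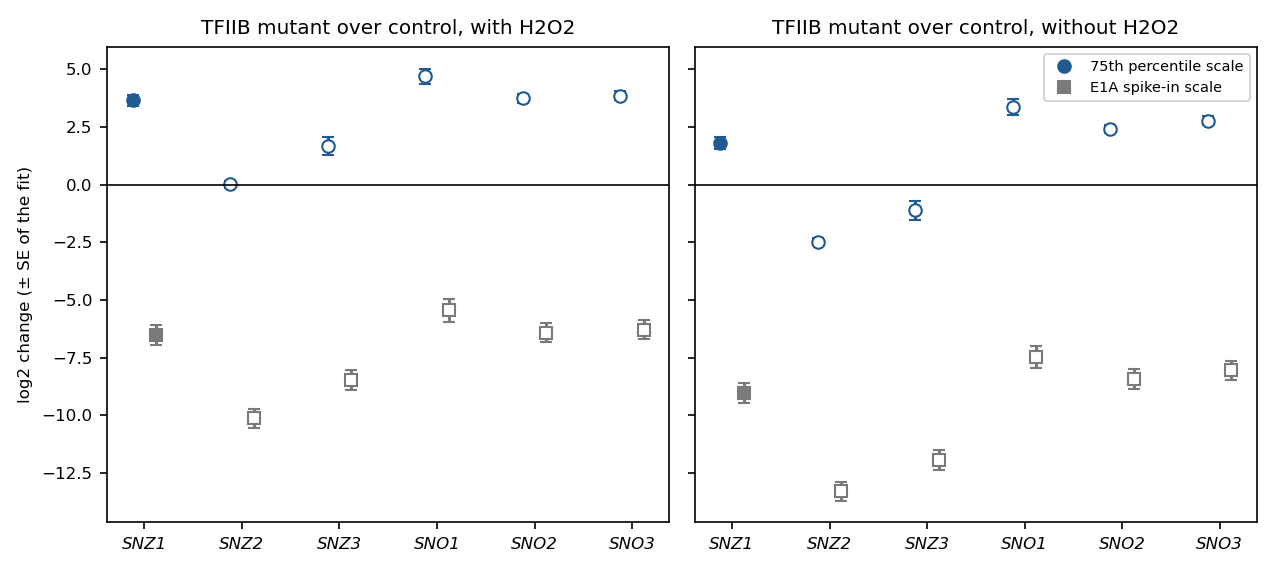
Log2 change of TFIIB mutant over control cells (± SE of the fit, 2 arrays a group) with H2O2 (left) and without H2O2 (right) for the 6 genes, on the 75th percentile scale (circles) and the E1A spike-in scale (squares); filled points were well above background on both mutant arrays. On the spike-in scale every gene lies below −5, and on the 75th percentile scale SNZ1, the only filled gene, lies at 3.65 and 1.81.

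H2O2 in mutant cells can be judged for SNZ1 alone. In units, and relative to the 75th percentile, both mutant arrays with H2O2 lay above both without it, opposite in direction to control cells. The share of all genes with such a separation was not counted, so nothing is read from it. Relative to the spike-in probes the mutant groups overlapped for SNZ1, with log2 levels of −6.33 and −5.77 in mutant cells with H2O2 and −7.33 and −6.23 in mutant cells without it. The log2 change was 0.60 ± 0.24 relative to the 75th percentile, which did not pass (adjusted p = 0.380, unadjusted p = 0.0429, limma), and 0.73 ± 0.43 relative to the spike-in probes (adjusted p = 0.999, limma). None of the 6 genes was called in this comparison by limma, 1 had an unadjusted p under 0.05, and 0.0331% of all genes tested were called. Without the second mutant array without H2O2 the change of SNZ1 was 0.95, and without the first it was 0.25. These fits leave 1 array in that group, so no call is read from them.

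The difference between the H2O2 changes of mutant and control cells was 1.84 ± 0.34 on the log2 scale for SNZ1 (adjusted p = 0.0282, limma), the 1 gene measured on all 8 arrays. Of the 6 genes, 5 were called, as were 11.6% of the genes tested, and on the spike-in scale 4 were, against 7.61%. For the other 4 genes called on the 75th percentile scale at least 1 mutant array was not well above background in each medium, so a fall of the control's size could not have been seen in the mutant. The contrast includes the H2O2 difference in control cells by which the genes were chosen. No member was called when the control arrays without H2O2 were averaged and counted as 1 sample, or without either of them.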

How the data were processed

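Transcript levels were measured on 8 one-colour arrays, 2 for each of 4 groups, with groups and replicate numbers taken from the sample titles. Per the file headers, the deposited scanner output comes from Feature Extraction 10.7.1.1 and gives an intensity for each spot, among them a processed signal with background subtracted, and says which spots stand well above it. The authors' deposited tables, 1 per medium, hold a fold change, a p-value and a corrected p-value, and normalized log2 values and raw intensities per array. In both, 4 lines were blanked beforehand and are not used here. The scanner files' grid names build sacCer2. Positions of the genes came from a RefSeq table of R64, which gave the same start for the 5 genes whose deposited description names that release.

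Processed signals were put on the log2 scale, averaged over the 2 spots of each probe and taken relative to the 75th percentile of their array. Control spots (536 per array) and outlier-marked spots were left out. For 29 genes with more than 1 probe the brightest was used. A probe counts as well above background on an array if both spots are. The 6045 genes with such a probe on each array of 1 group or more were fitted with limma 3.58.1 in R 4.3.3 (lmFit and eBayes, 1 fit of 4 groups, 4 residual degrees of freedom), with two-sided p-values adjusted by Benjamini-Hochberg over all genes within a comparison and called under 0.05. The fit was tested on simulated data. A fold is a bound where neither array of a group measured the probe well above background: the bright group's mean against, per array, whichever is higher, the dim probe's signal or the lowest signal that is well above background, as means of scaled log2 values. The number of arrays limits the precision.

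The members, the gene lists, the tests and the alternatives were chosen with earlier results of these data known. Named are the 6 members, SUA7, all genes of the vitamin B6, segment and SNZ1/SNO1 neighbour lists, up to 4 genes with the smallest p of the other lists, and the 3 nearest named genes of each SNZ gene; PDC2 and the unmeasured SPG1 were named after their values or lack of them were seen. Alternatives were other scalings (median, quantile, 7 of 10 E1A spike-in probes), normexp with an offset of 50, other filters, all probes averaged, fits of the compared groups, the replicate number as a block, the authors' normalized values, the unpaired test named in the tables' headers and leaving out each array. Normexp was planned on a mean signal and used the median signal instead. Same-numbered arrays of the groups did not deviate together in every pair of groups (correlations −0.072 to 0.21).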

Additional observations from a re-analysis of the deposited data

Results flagged for a closer look

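The difference between the H2O2 changes of mutant and control cells was called by limma on the 75th percentile scale for 5 of the 6 genes. It contains the H2O2 difference in control cells on which the family was selected, so the values are a description. It was 1.84 ± 0.34 for SNZ1, 2.48 ± 0.22 for SNZ2 (adjusted p = 0.0175), 2.79 ± 0.57 for SNZ3 (adjusted p = 0.0296), 1.33 ± 0.25 for SNO2 (adjusted p = 0.0282) and 1.09 ± 0.27 for SNO3 (adjusted p = 0.0479), each positive, with a lower level in control cells with H2O2. SNO1 had 1.33 ± 0.47 and did not pass (adjusted p = 0.108). SNZ1 was the 1 gene of these with all mutant arrays well above background; SNZ3 had 1 such mutant array in each medium and SNZ2, SNO2 and SNO3 had none, so their change in mutant cells is between signals that were not well above background. On the spike-in scale 4 genes passed, against 7.61% of all genes tested (457 genes higher and 3 lower, against 363 and 337 on the 75th percentile scale), and the median of all genes was 0.69 there. The part of the mutant arrays' low signal in these differences was not tested.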

How the results depend on the processing

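Near-identical gene copies and mutant signals near background limit every value above, as do 2 arrays a group. The count of members called for H2O2 in control cells, 6, was 0 with quantile normalization (117 genes called in all, against 1637) and 1 with the control arrays without H2O2 averaged as 1 sample (124 genes); leaving out each array it ran from 1 to 6 (85 to 2263 genes). The normexp correction and the fit of the compared groups called 4235 and 3473 genes and the spike-in scale 986, with all 6 members in each. The interaction count, 5, was 0 with quantile normalization, 0 with the averaged arrays and 0 to 6 when leaving out an array. For H2O2 in mutant cells the count stayed 0 except in fits left with 1 mutant array without H2O2, from which no call is read. In mutant against control cells the counts stayed between 4 and 6 under every alternative run, with SNZ3 without H2O2 the call most often lost (12 of 20 alternatives). Under these similar counts the genes called and their directions changed. SNO1 was not called in either medium with quantile normalization or in the authors' normalized values. SNZ2 with H2O2 was called lower with median scaling, with quantile normalization and in the authors' normalized values. Signs turned on the spike-in scale: with H2O2, SNZ1 −6.50, SNO1 −5.45, SNZ2 −10.13, SNO2 −6.41, SNZ3 −8.47 and SNO3 −6.29, and without H2O2, SNZ1 −9.01, SNO1 −7.46, SNO2 −8.41 and SNO3 −8.05. SNZ2 with H2O2, 0.018 on the 75th percentile scale, was 2.04 with normexp, −0.74 with median scaling, −2.29 with quantile normalization, −2.40 in the authors' normalized values and −0.045 to 0.080 when leaving out an array. Of 383 member values under alternatives, 319 kept direction and call, 48 lost the call, 2 gained it and 14 changed sign; where no construction shows why, the cause was not tested. The replicate block gave 6 called members for H2O2 in control cells, 6 and 5 for mutant against control without and with H2O2, 0 for H2O2 in mutant cells and 4 for the interaction; the numbers alone do not pair the samples.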
